A study of Oryza sativa with 7 samples.

Results

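Root and developing seed of the rice cultivar Ilmi were compared for the level of each locus and for the way each locus spread its counts over its exons. The comparison used 3 of the 7 RNA sequencing libraries of the series, taken by their tissue labels: 1 root library and 2 seed libraries. Root was collected at 14 days, and seed at 20 to 30 days after pollination, with 21 in the sample names. The other 4 libraries, 2 of leaf at 14 days and 2 of unpollinated flowers on panicles 0.5 to 1.5 cm long, entered the fits and are quoted where they show where else a locus was expressed. The labels give no treatment and no genotype other than the cultivar.

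Roots take up water and mineral nutrients, and the cells of the root carry transporters, wall-forming enzymes and defence proteins. A cereal seed in the weeks after pollination fills its endosperm with starch and storage proteins, and a small number of storage protein genes are known to yield a large part of its mRNA. Many plant genes also give more than one mature transcript by alternative splicing or by another start or end, and the series title names alternatively spliced transcripts in these tissues as its subject. The counts here are over exon bins, which are stretches of annotated exons, so they can show both kinds of difference.

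Bin counts came to 20940842 in root, and to 17866682 and 11989260 in seed libraries 1 and 2. With its single library, root gives no spread of its own, and every test below assumes that it varies like the other tissues. Nothing in the labels says that libraries of a tissue came from different plants. The p-values therefore reflect the spread between these libraries alone, and that spread may be technical. The files pair no gene names with their locus IDs. The tissue labels were therefore not checked against marker genes, and loci are given by ID, with the chromosome that the ID carries. In whole tissues, fewer cells of a type and less RNA per cell cannot be told apart.

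Seed put its counts into far fewer loci than root did. The 100 most abundant loci held 14.2% of the counts in root, 30.8% in seed 1 and 43.9% in seed 2. Reaching 50% of all counts took 1287 loci in root, 732 in seed 1 and 229 in seed 2. The most abundant locus held 0.890% of root counts, against 4.17% and 8.63% in the seed libraries. Seed 2 was thus more concentrated than seed 1, and root was the most even of the 3 libraries. These are shares of bin counts, not of transcripts: whether a read over several bins was counted in each is not given in the sources.

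**Figure D1:**
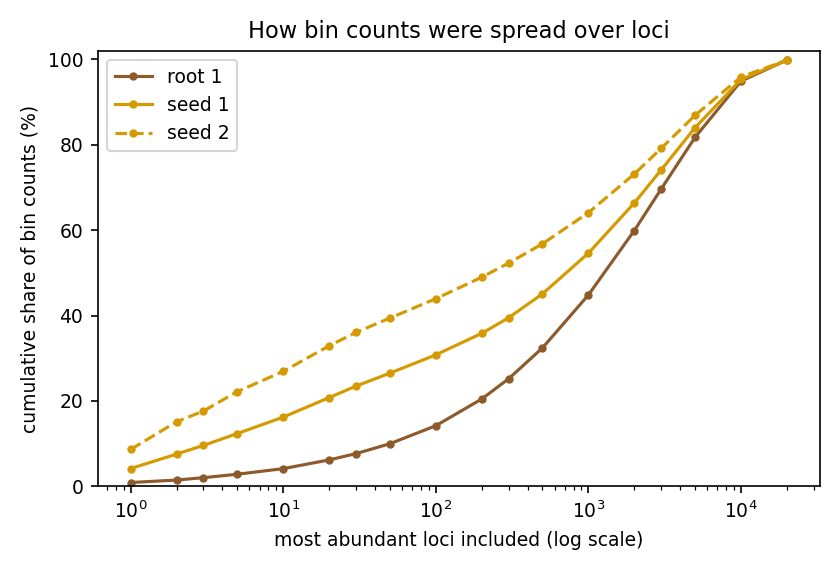
Cumulative percent of bin counts (y axis) held by the most abundant loci of each library (x axis, number of loci, log scale), for root and both seed libraries. The seed curves start higher, and at 100 loci they stand at 30.8% and 43.9%, against 14.2% in root.

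Many loci differed in level between root and seed, in both directions. Of 26784 loci tested, 5420 were called (20.2%; edgeR quasi-likelihood test, Benjamini-Hochberg adjusted p under 0.05 and at least 2-fold). Higher levels in root were called for 2875 loci (10.7% of those tested), and higher levels in seed for 2545 (9.5%). The calls therefore split 53.0% to 47.0%. With root and seed libraries alone in the fit, 2117 loci were called, and without leaf 1 or leaf 2 the counts were 2990 and 3012.

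The differences were larger among the loci higher in seed. Fold sizes here are fitted values, except that a locus with no count in 1 of the tissues stands at the bound that 3 counts over that tissue's libraries would give. On that scale the median difference was 3.33 (log2) for loci higher in root and 4.07 for loci higher in seed, against 1.10 over all loci tested. Without the bounds the fitted medians were 3.36 and 4.61. Differences of 32-fold or more made up 788 loci higher in root (27.4%) and 930 loci higher in seed (36.5%). Small differences, under 4-fold, made up 20.7% of the root-higher and 11.2% of the seed-higher loci. No seed count at all was found for 308 of the root-higher loci, and no root count for 613 of the seed-higher loci. Over all loci tested, 1099 had no seed count and 2130 had no root count. The 2 counts are unlike, since seed had to lack counts in both of its libraries and root in its only 1.

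**Figure D2:**
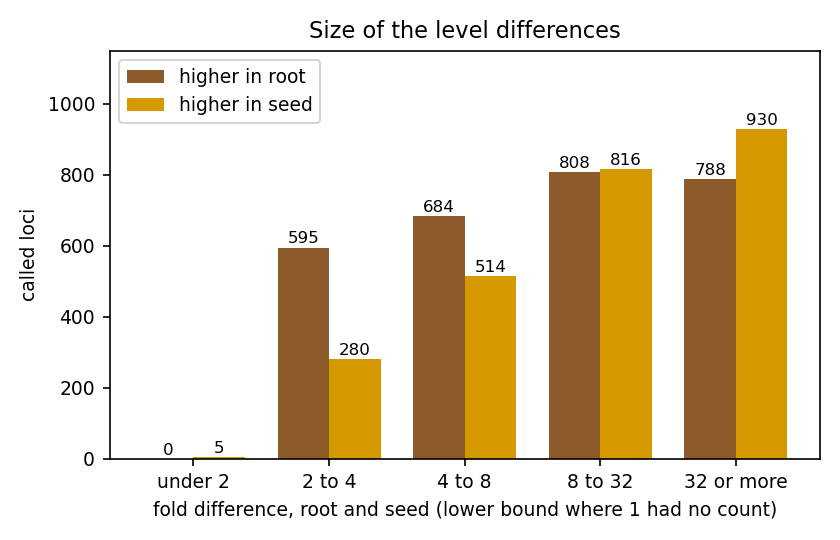
Number of called loci (y axis) by size of the difference between root and seed (x axis, fold classes, with the lower bound for a locus that had no count in 1 tissue), for loci higher in root and loci higher in seed. In the class of 32-fold or more there are 788 root-higher and 930 seed-higher loci, and in the class of 2 to 4 there are 595 and 280.

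Loci higher in root tended to lie above the median tested locus in root and below it in seed. Their median level was 34.3 CPM in root, against 2.51 and 2.11 CPM in seed 1 and seed 2 (CPM, counts scaled to a common library size). Those higher in seed had medians of 17.3 and 16.7 CPM in the seed libraries and 0.509 CPM in root. Over all loci tested, the medians were 5.69 CPM in root and 5.88 and 6.02 CPM in seed 1 and seed 2. Together the root-higher loci held 30.0% of root counts, and 4.44% and 3.40% of seed counts. The seed-higher loci held 37.5% and 51.8% of the counts in the seed libraries, and 1.63% of those in root. These sums are over loci chosen by the same difference and are given as a description. They move with the number of calls: in the fits that leave out 1 library, root-higher loci held from 20.7% (without leaf 1) to 44.2% (without seed 1) of root counts, and from 1.65% to 12.4% of the counts in a seed library. The seed-higher loci held from 0.575% (without leaf 1) to 3.41% (without seed 2) of root counts in the same fits. With root and seed libraries alone in the fit, root-higher loci held 12.996% of root counts and 0.572% and 0.448% of seed counts, and seed-higher loci held 0.179% of root counts.

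The direction of the calls changed with abundance. Among the 5529 loci under 1 CPM on average over root and seed, 0.977% were called higher in root and 2.86% higher in seed. From 1 to 10 CPM it was 10.6% and 12.1% of 9211 loci. From 10 to 100 CPM the order was the other way round, with 14.5% and 10.5% of 9900 loci. Between 100 and 1000 CPM it was 19.0% and 9.86% of 2079 loci. At 1000 CPM and above, 12 of 65 loci were called higher in root (18.5%) and 37 higher in seed (56.9%). The most abundant loci thus lay mostly on the seed side, and the well-expressed loci below them more often on the root side. The bands rest on the mean of both tissues, so a locus can enter a high band through its level in 1 tissue alone.

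The 12 abundant root-higher loci had between 1711 and 8623 CPM in root, with a median of 2496, and together took 4.16% of root counts. The same loci took 0.326% and 0.330% of counts in the seed libraries. The 37 abundant seed-higher loci had seed means between 2024 and 77400 CPM, with a median of 4964. They took 23.9% of counts in seed 1 and 37.0% in seed 2, against 0.160% in root. Root levels of these 37 ran from 0 to 763 CPM with a median of 0.463, and 19 of them had no more than 10 root counts. Seed 2 stood above seed 1 for 24 of the 37, and by at least 2-fold for 16.

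**Figure D3:**
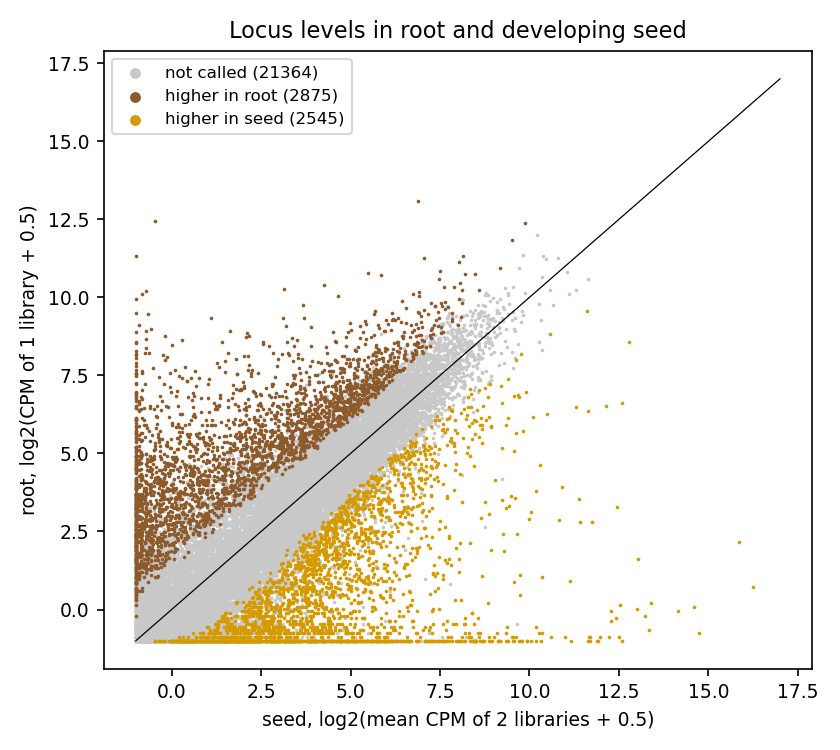
Level of each tested locus in seed (x axis, log2 of the mean CPM of both libraries plus 0.5) and in root (y axis, log2 of CPM plus 0.5), 1 point per locus, coloured by call, with the line of equal levels. The loci highest in seed lie at the lower right, where root is near 0, and 2875 root-higher and 2545 seed-higher loci lie on either side of the line.

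The leading loci each way were ranked by the smaller of their log2 ratios to the seed libraries, among called loci with at least 100 CPM in the higher tissue and both seed libraries at least 2-fold from root. There were 696 such loci on the root side and 407 on the seed side. Their smaller log2 ratio had a median of 2.17 on the root side and 4.64 on the seed side, and reached 12.89 and 15.20. The first 2 by this ratio and the first 2 by the difference in percent of counts are described for each direction. A ratio between tissues given for a named locus takes the counts summed over both seed libraries over their summed scaled library sizes, so seed 1, the deeper library, weighs more than in the mean CPM. These values belong to the contrast that chose the loci and are a description of them.

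Os12g0571100, on chromosome 12 with 3 bins, led the root side by ratio and was among the first 2 by share. It had 121879 counts in root, 4 in seed 1 and 2 in seed 2. In CPM it stood at 5641 in root, against 0.228 ± 0.0240 in seed (SD, n = 2), a pooled ratio of 24258 with a counting interval from 11145 to 66103. Root gave 0.582% of its counts to this locus, and both seed libraries were at the edge of detection. Leaf had 242 and 290 counts, and panicle 0 and 3. All 3 bins carried root counts, with 39558, 28085 and 54236. The fitted log2 fold change was 14.54 (SE 0.98, edgeR adjusted p = 0.00251).

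Os09g0409100 is a locus of 1 bin on chromosome 9. It had 54972 counts in root and none in seed 1, seed 2 or either panicle library, with 17 and 39 counts in leaf. Its root level of 2544 CPM was at least 21883-fold higher than in seed, where 3 counts over both seed libraries set the bound. The bound is 8036 without seed 1 and 13846 without seed 2, since 3 counts then weigh on fewer reads. The edgeR adjusted p was 0.00256.

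Os03g0223400, with 11 bins on chromosome 3, held more of the root library than any other locus, 0.890% of counts. It had 186296 counts in root, 1944 in seed 1 and 1108 in seed 2. Root stood at 8623 CPM and seed at 118 ± 1.51 CPM (SD, n = 2), 72.9-fold lower by the pooled counts, so the locus was well detected in seed. Leaf resembled seed, with 107 and 172 CPM, and panicle was lower, with 2.11 and 14.0 CPM. The seed libraries lay close together, and the log2 fold change was 6.19 (SE 1.005, edgeR adjusted p = 0.00873).

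Os03g0427300, on chromosome 3 with 4 bins, had the largest ratio on the seed side. It had 2 counts in root, 364073 in seed 1 and 301515 in seed 2, and no more than 5 counts in any leaf or panicle library. Seed stood at 27060 ± 6732 CPM (SD, n = 2) and root at 0.0926 CPM. The pooled ratio was 278673, with a counting interval from 77144 to 2301101 that the 2 root counts set. Each of the 4 bins held between 18.0% and 32.4% of its counts in both seed libraries. The log2 fold change was -18.07 (SE 1.39, edgeR adjusted p = 0.00256).

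Os01g0762500, with 4 bins on chromosome 1, was the most abundant locus in both seed libraries. It had 25 counts in root, 744160 in seed 1 and 1034920 in seed 2. Seed 1 stood at 45581 CPM and seed 2 at 109220, which is 2.40 times as high, while root was at 1.16 CPM. The mean over seed was 77400 ± 44999 CPM (SD, n = 2), and the pooled ratio to root was 59590, or 94390 without seed 1 and 39392 without seed 2. Leaf and panicle lay near root, with 21 to 41 counts each. The log2 fold change was -16.02 (SE 1.56, edgeR adjusted p = 0.00269).

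Os10g0400200, on chromosome 10 with 4 bins, came next by share, with 3.38% and 6.48% of counts in the seed libraries. It had 86 counts in root, 603033 in seed 1 and 776885 in seed 2. In CPM, seed 1 was at 36937 and seed 2 at 81988, while root was at 3.98. Seed 2 was again the higher library, by 2.22 times. The pooled ratio to root was 13436, or 20598 without seed 1 and 9280 without seed 2, and the log2 fold change was -13.86 (SE 1.36, edgeR adjusted p = 0.00273). Leaf had 50 and 172 counts and panicle 229 and 166, so it too was low outside seed.

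**Figure D4:**
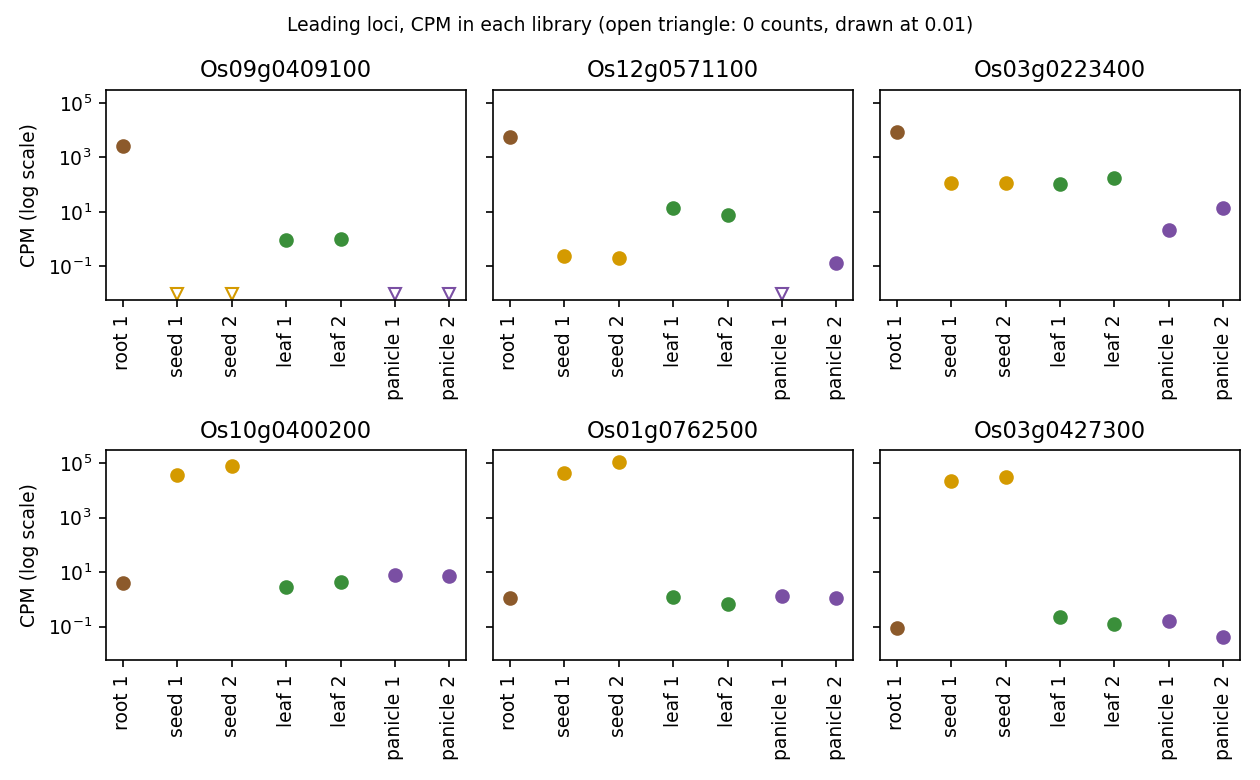
Levels of the 6 named loci (y axis, CPM, log scale, with open triangles for 0 counts) in each of the 7 libraries, 1 point per library and coloured by tissue. The seed-side loci are above 20000 CPM in both seed libraries and below 10 CPM in all other libraries.

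For all 5420 calls both seed libraries lay on the same side of root, which the call itself favours. Without any test, 8868 loci were at least 2-fold from root in both seed libraries on the log2(CPM + 0.5) scale. Root was above both for 4736 loci (17.7% of those tested) and below both for 4132 (15.4%). This split moved with the scaling, to 5591 and 3396 with no scaling factor, and its order turned with a pseudocount of 0.1 CPM, which gave 5340 and 5356. Of the 8868 loci, 5385 were called and 3483 were not, and 2758 of those not called had an unadjusted p under 0.05 in edgeR. For 4920 loci root lay between the seed libraries.

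The seed libraries themselves differed by a median of 0.52 (log2) per locus, against 0.84 from root to seed 1 and 0.94 from root to seed 2. At least a 2-fold difference separated seed 1 from seed 2 for 6425 loci (24.0%), and root from them for 11738 and 12759. Within the seed-higher calls, 767 loci (30.1%) differed 2-fold between the seed libraries, 426 of them with seed 2 higher. In the root-higher calls it was 427 loci (14.9%). The seed libraries thus stood apart more often among the seed-higher calls than among the root-higher calls. Seed levels were lower among the root-higher calls, with medians of 2.51 and 2.11 CPM, against 17.3 and 16.7 CPM among the seed-higher calls. The log2(CPM + 0.5) scale used here shrinks differences at low levels. For 308 root-higher loci neither seed library had a count, so no difference could show.

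Detection on one side only was seen for a small part of the 37858 loci in the tables. At least 10 counts in root and none in either seed library were found for 589 loci (1.56%), of which 307 were called. The other direction asked for at least 10 counts in both seed libraries and none in root, and held 646 loci (1.71%), of which 534 were called. A count of 0 at these depths shows only that the locus was not detected.

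The other tissues show which calls were high in root or seed among all 4. Of the 2875 root-higher loci, 2254 (78.4%) had their highest mean CPM in root, 408 in leaf and 213 in panicle. Of the 2545 seed-higher loci, 1360 (53.4%) were highest in seed, 844 in leaf and 341 in panicle. Over all loci tested, 26.0% were highest in root and 23.0% in seed. At the other end, root alone was lowest for 1773 of the seed-higher loci (69.7%), and seed alone for 1271 of the root-higher loci (44.2%), beside 28.4% and 20.3% of all loci. Root was often the extreme tissue in both directions, and it is the tissue with 1 library. The call already sets the order of root and seed, which by itself raises these shares above those of all loci. They are given as a description. The root-higher loci took 10.6% of counts in each leaf library and 8.15% and 8.23% in panicle. Those higher in seed took 25.2% and 29.0% in leaf, and 7.72% and 7.36% in panicle. The seed-higher loci thus held a larger share of counts in leaf than in panicle. How many of them made up that share was not counted.

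Called loci were spread over all 12 chromosomes. By chromosome, the share of tested loci called higher in root ran from 8.77% on chromosome 9 to 12.04% on chromosome 4, and the share called higher in seed from 8.02% on chromosome 9 to 10.2% on chromosome 12. In the order of the IDs, which follows position along the chromosome, the next tested locus was also higher in root for 458 of 2875 root-higher loci (15.9%, against 10.7% of all loci). For the seed-higher loci it was 398 of 2544 (15.6%, against 9.50%). Runs of 3 or more neighbours numbered 70 on the root side, holding 232 loci, and 63 on the seed side, holding 216. The longest runs, of 7 root-higher and of 8 seed-higher loci, were both on chromosome 7. Without leaf 1 the shares were 10.5% and 11.5%, and in each of 14 settings they were above the share of all loci called, by 1.31 to 3.01 times. Counts set apart as ambiguous were 11.4% of all counts in root and 8.44% and 8.50% in seed, and were left out. How reads of neighbours that overlap or are near-identical copies were assigned is not given in the sources, so the counts of such pairs are uncertain.

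Loci with 1 bin were 19.3% of the root-higher calls (556) and 13.8% of the seed-higher calls (350), beside 21.5% of all loci tested (5762). Neither direction therefore rested mainly on loci of 1 bin.

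Few loci were called for a difference in exon usage between root and seed. With 1 root library, the number of calls does not show how many loci differed. Of 18512 loci with 2 or more tested bins, 8 were called (0.0432%; edgeR diffSpliceDGE, adjusted Simes p under 0.05), and 244 had an unadjusted p under 0.05. In these, 7 of 117658 bins were called (0.00595%), each in a different locus, with 5 taking a larger share in root and 2 a larger share in seed. First bins made up 2 of the 7, internal bins 5, and last bins none. All 7 were among 62033 bins of loci with at least 200 counts in root and each seed library. Of those bins, 10.2% were first, 79.7% internal and 10.2% last. For 6 of the 8 loci the level was called too, beside 20.2% of all loci tested for level. Limma's diffSplice called 26 loci, 4 of them among the 8, and the fit of root and seed libraries alone called 2. Without leaf 1, panicle 2 or seed 1 the counts of loci were 5, 4 and 12. Shares are given as percent of the counts of the locus. First and last refer to the bin number. The strand of a locus was not available, so neither need be the start or the end of a transcript. The counts hold no reads over junctions, so a spliced exon cannot be told apart from a different transcript start or end.

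Bin 14 of 15 in Os08g0345800, on chromosome 8, held 26.7% of the locus's 288 root counts (Wilson 95% interval 22.0 to 32.1, counting error only). It held 0.464% in seed 1 and 0.382% in seed 2, where the locus had 23697 and 8107 counts. Leaf and panicle were on the root side, with 35.3% and 27.2% in leaf and 16.8% and 23.6% in panicle. The last bin, bin 15, went the other way, with 9.72% in root and 35.5% and 33.4% in seed, and no more than 0.575% in leaf or panicle. Bin 13 held 44.8% in root, and 48.4% and 45.2% in seed, so the large differences lay in bins 14 and 15. The log2 usage difference of bin 14 was 4.11 (edgeR diffSpliceDGE adjusted p = 0.000736), while bin 15 was not called (adjusted p = 1.0). The call of bin 14 was kept in 8 of 10 alternative fits, and was lost with root and seed libraries alone and without panicle 2. In level the locus was far higher in seed, by a log2 difference of -6.43 from seed to root (edgeR adjusted p = 0.00260).

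In Os01g0859200, on chromosome 1, bin 2 of 9 held 21.8% of 202 root counts (Wilson 95% interval 16.6 to 28.0). Seed had 1.37% and 1.31%, the panicle libraries 1.34% and 2.75%, and the leaf libraries 20.7% and 9.53%. Root and leaf were therefore high and seed and panicle low. The log2 usage difference was 2.82 (edgeR diffSpliceDGE adjusted p = 0.0227), and the call was lost in each of the 9 alternative fits, with adjusted p between 0.0666 and 1.0. The level of the locus was lower in root (log2 fold change -1.93, edgeR adjusted p = 0.0197).

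Bin 11 of 13 in Os04g0573200, on chromosome 4, took a small share in root. It held 0.656% of 1677 root counts (Wilson 95% interval 0.367 to 1.17), against 7.59% and 11.7% in seed. Leaf had 5.78% and 11.3%, and panicle the most, 39.8% and 31.8%. The log2 usage difference was -2.68 (edgeR diffSpliceDGE adjusted p = 0.00447), and the call was kept in 6 of 10 alternative fits, with adjusted p from 0.00243 to 1.0. Level was not called for this locus (log2 fold change 0.70, edgeR adjusted p = 0.140).

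In Os09g0446800, on chromosome 9, the first of 7 bins held 0.287% of 2790 root counts (Wilson 95% interval 0.145 to 0.565). Seed 1 had 10.6% and seed 2 had 4.76%, so the seed libraries themselves differed by more than a factor of 2. In leaf it was 1.63% and 0.886%, and in panicle 1.18% and 2.84%. The log2 usage difference was -3.29 (edgeR diffSpliceDGE adjusted p = 0.0167), and the call was kept in 4 of 10 alternative fits, with adjusted p from 0.00140 to 1.0. The level was higher in seed (log2 fold change -1.57, edgeR adjusted p = 0.0279).

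**Figure D5:**
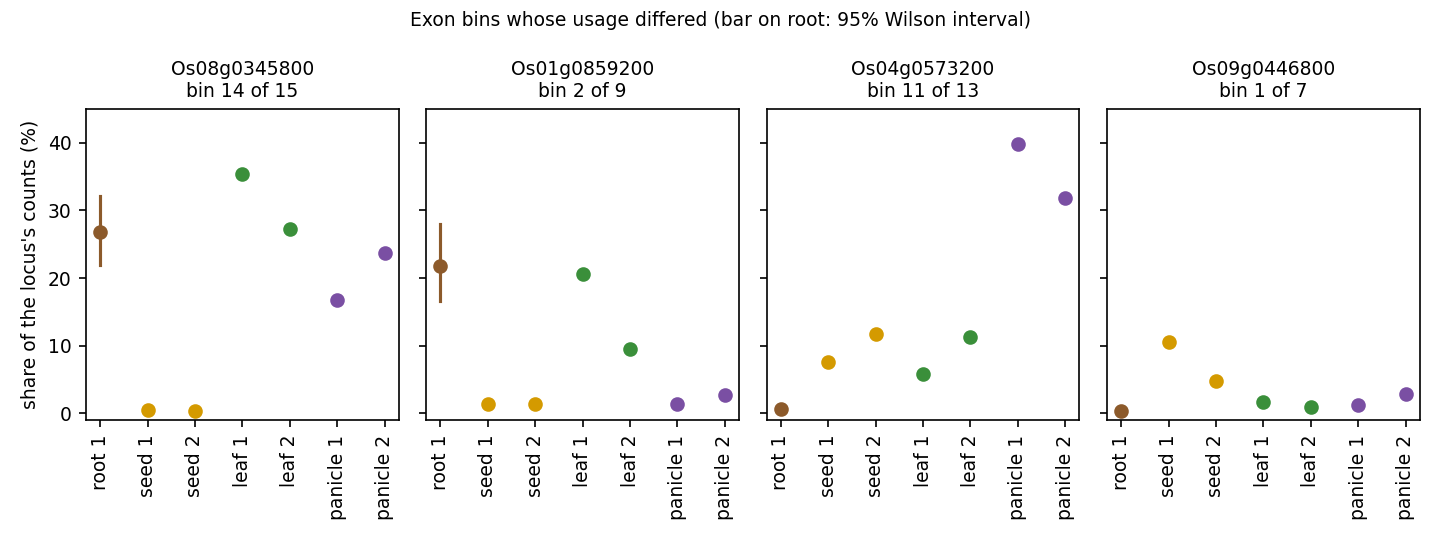
Share of the locus's counts in each of the 4 named bins (y axis, percent) in all 7 libraries, 1 point per library and coloured by tissue, with Wilson 95% intervals for root. Bin 14 of Os08g0345800 lies below 1% in both seed libraries and above 15% in the other 5.

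The other 3 called bins each took a larger share in root but were small there. They held 1.90% in root against 0.0161% and 0.00897% in seed, 4.98% against 0.0198% and 0.0700%, and 6.99% against 0.496% and 0.535%. In the same order, the root shares rested on 40 of 2105, 10 of 201 and 103 of 1473 counts. In all 3 the locus itself was called higher in seed, beside 9.5% of all loci tested for level.

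Large differences in share were few. They were about as common between root and seed 1 as between the seed libraries, and more common between root and seed 2. In 62033 bins of 6305 loci with at least 200 counts in each of the 3 libraries, the median absolute difference in share was 1.19 percentage points from root to seed 1 and 1.48 from root to seed 2. Between the seed libraries it was 1.27 points. Differences of at least 20 points were seen in 32 bins from root to seed 1, in 70 from root to seed 2, and in 32 between the seed libraries. Only 13 bins, in 10 loci, were at least 20 points from root in both seed libraries, 8 of them larger in root and 5 larger in seed. Bins of a locus share a sum of 100%, so bins of 1 locus are not independent.

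The bin with the largest such difference was the first of 11 in Os02g0555600, on chromosome 2, singled out after its values were seen. It held 5.66% of 318 root counts, against 40.0% of 870 and 40.4% of 282 seed counts. In leaf it held 30.4% and 29.8%, and in panicle 14.2% and 13.04%. Root was therefore the lowest library. The bin was not called (edgeR diffSpliceDGE adjusted p = 0.251), nor was its locus (edgeR diffSpliceDGE adjusted p = 0.322 by Simes' method).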

How the data were processed

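Whole-number counts per exon bin were deposited for 7 libraries; the authors did not normalize them, as the values show. A TruSeq RNA kit was used for mRNA, per the labels' protocols. HTSeq, Cufflinks, SAMtools 1.2, TopHat2 2.0.4, Bowtie2 and bcl2fastq 1.8.4 are named in the submitters' processing notes, with the build IRGSP-1.0. For strand setting and read filters, the sources used here give nothing, so antisense or overlapping loci cannot be told apart. Rows that name no gene (5 per table, 12.2% to 15.8% of counts) were left out. The 178317 bins belong to 37858 loci, of which 1 matched the RefSeq table for another assembly. Gene lists and marker checks planned by gene description were therefore not run.

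The bins of a locus were added up. Loci passed filterByExpr (minimum count 10 in 1 library) and tested in edgeR 4.0.16 under R 4.3.3: TMM scaling, 4 tissue means over all 7 libraries, 3 residual degrees of freedom, quasi-likelihood test of root minus seed. SE is the size of the log2 fold change divided by the root of F. TMM factors were 1.03 in root and 0.914 and 0.791 in seed. Usage was tested with diffSpliceDGE on 117658 bins, and a bin was called only in a called locus. Counting intervals are 95% exact binomial intervals on the ratio of 2 counts, shares have Wilson intervals, and bounds use 3 counts over a tissue's libraries. All cover counting error only, and make no allowance for a read that may have been counted in several bins. The scripts were tested on simulated data. Named loci are called, have at least 100 CPM in the higher tissue, and are the first 2 per direction by ratio and by share of counts. Named bins are the first 2 called per direction by difference in share with at least 200 counts per locus. The members, rules and lists were chosen with earlier results of these data known. Alternatives were DESeq2 1.42.0, RLE factors, other filters, pseudocounts and fold minimums, the largest bin per locus, no abundant loci, other libraries in the fit, limma 3.58.1, and a replicate block.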

Additional observations from a re-analysis of the deposited data

How the results depend on the processing

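The count of 5420 loci called for level came to 2117 with root and seed libraries alone in the fit, which leaves fewer residual degrees of freedom. Leaving out 1 library at a time it ran from 2990 (without leaf 1) to 7613 (without seed 1), with 3012 without leaf 2 and 6977 without seed 2; the cause was not tested. The root library is single and cannot be left out. DESeq2 called 7451 loci (5216 shared), RLE factors 5551, the largest bin per locus 5394, no low-count filter 6192, and a 4-fold minimum 4555. Root-higher loci made up 49.2% to 54.7% of calls over these settings. Over all loci tested, the log2 difference had a median of -0.09, and -0.22 and -0.23 without panicle 1 and panicle 2. The 8 loci called for usage came to 2 with root and seed alone, 26 with voom and diffSplice, and 4 (without panicle 2) to 12 (without seed 1) when 1 library was left out, with 5 without leaf 1. All 6 named loci kept their level call in every alternative run that tested them (73 of 73). In the run without the 100 most abundant loci, Os09g0409100 was the only named locus tested. The named bins kept their calls in 18 of 39 runs, and no direction reversed. Os08g0345800 lost its call in the fit of root and seed alone and without panicle 2. The 8868 loci at least 2-fold from root in both seed libraries numbered 4058 at 4-fold, 10696 with a pseudocount of 0.1, and 11738 and 12759 against 1 seed library.

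Same-numbered libraries deviated together only weakly (correlations 0.220 for seed and leaf, 0.0440 for seed and panicle, 0.139 for leaf and panicle), and the labels do not tie the numbers to a plant or batch. With a replicate block 5656 loci were called for level (4931 shared) and 12 for usage (6 shared). The 13 bins at least 20 points apart numbered 273 at 10 points and 1 at 30 points, and 36 or 3 with a minimum of 100 or 500 counts; these 4 settings were chosen after seeing the data. Depth limits low loci most: with 288 and 202 root counts, the shares of the 2 root-side bins have intervals of 22.0 to 32.1 and 16.6 to 28.0%.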
